A study of Mus musculus with 9 samples.

Results

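The 5 genes described are the CCR2 ligand genes Ccl2, Ccl7, Ccl8, and Ccl12 and the receptor gene Ccr2, taken by name from the 24341 genes of a liver expression table. The samples were livers of 9 wild-type C57BL/6 mice, collected 48 hours after treatment. Treated mice (2, 5, and 9; n = 3) received FGK45, an agonist antibody against CD40 (anti-CD40), and control mice (3, 4, 7, 8, 11, and 12; n = 6) are labelled PBS. All mice carried the same genotype, and the study's methods give sex-matched animals of 8 to 12 weeks as the general rule. Some anti-CD40 mice were excluded by the study when blood B cells did not fall after treatment, so the treated group may hold only responders by that criterion. Each sample is labelled with its own mouse number.

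CCR2 is a G protein-coupled receptor carried mainly by classical (Ly6C-high) monocytes, which need it to leave the bone marrow and to enter inflamed tissue. Its ligands, the monocyte chemoattractant proteins CCL2, CCL7, CCL8, and CCL12, are small secreted CC chemokines whose genes lie close together. Ccl12 has no human counterpart of the same name. In the liver, Kupffer cells, stellate cells, endothelial cells, hepatocytes, and incoming myeloid cells can all make CCL2. Mouse CCL8 is also known as a ligand of CCR8, and CCL7 also binds CCR1 and CCR3.

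Every one of the 5 genes was higher after anti-CD40, and for each gene the lowest anti-CD40 mouse lay above the highest control mouse. The rise was of unequal size. Ccl2 and Ccl7 had mean levels 38.5 and 80.5 times those of control mice, whereas Ccl8, Ccl12, and Ccr2 had means 4.87, 6.91, and 7.20 times as high. Levels are FPKM, in which fragments are counted relative to transcript length and to all mapped fragments, made by the authors from libraries that read each transcript near its 3′ end. The 5 calls stand against a broad response: limma called 45.1% of the 13807 genes tested at an adjusted p under 0.05, and 23.5% were called higher. In 22.7% of the genes tested, all anti-CD40 mice lay above all control mice.

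In the mm10 build, the ligand genes lie on chromosome 11 on the plus strand, with Ccl2 at chr11:82035577-82037452, Ccl7 at chr11:82045712-82047523, Ccl12 at chr11:82101845-82103399, and Ccl8 at chr11:82115185-82116799. Measured from the start of Ccl2, Ccl7 began at 10.1 kb, Ccl12 at 66.3 kb, and Ccl8 at 79.6 kb. Ccl11, which encodes the eosinophil attractant eotaxin, began at 22.3 kb, between Ccl7 and Ccl12. Ccr2 lies on another chromosome, at chr9:124102183-124109140, beside other CC receptor genes.

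The 250 bases before the start of Ccl12, Ccl8, and Ccr2 are shown because these are the 3 genes with log2 fold changes between 2.51 and 2.80, of which Ccl12 and Ccl8 are neighbours (RefSeq, GRCm38.p6, plus strand, 5′ to 3′). Capitals mark matches to searched motifs. Ccl2, Ccl7, and Ccl11 had no entry in the promoter table.
Ccl12, chr11:82101595-82101844: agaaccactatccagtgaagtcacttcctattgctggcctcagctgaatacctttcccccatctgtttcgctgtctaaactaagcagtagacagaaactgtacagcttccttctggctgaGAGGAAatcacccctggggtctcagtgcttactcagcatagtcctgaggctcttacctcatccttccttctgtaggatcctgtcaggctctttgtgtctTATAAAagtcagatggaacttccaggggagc
Ccl8, chr11:82114935-82115184: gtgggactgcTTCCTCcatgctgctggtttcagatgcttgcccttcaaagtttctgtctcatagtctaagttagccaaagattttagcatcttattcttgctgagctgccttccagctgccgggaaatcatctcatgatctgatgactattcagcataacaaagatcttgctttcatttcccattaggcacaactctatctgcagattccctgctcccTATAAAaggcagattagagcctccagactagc
Ccr2, chr9:124101933-124102182: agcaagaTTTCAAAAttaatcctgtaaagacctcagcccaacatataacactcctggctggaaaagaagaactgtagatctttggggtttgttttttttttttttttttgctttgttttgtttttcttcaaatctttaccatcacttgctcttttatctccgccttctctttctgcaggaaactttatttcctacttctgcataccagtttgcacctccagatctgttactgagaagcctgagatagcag

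Ccl12 and Ccl8 both held the TATA box letters TATAAA, starting 31 and 32 bases before the start site, and both held the PU.1 letters GAGGAA, at 130 bases before the start on the plus strand in Ccl12 and at 240 bases before on the minus strand in Ccl8. The Ccr2 window held neither of these and had a minus-strand match to the C/EBP letters TTNNGNAA at 243 bases before the start. That start is the RefSeq one. GENCODE begins the Ccr2 gene at chr9:124101950, so most of this window lies inside the gene by that annotation. Searched on both strands without a match in these 3 windows were the NF-kB consensus, the interferon-stimulated response element, the STAT letters TTCNNNGAA, and the AP-1 letters TGANTCA. Among 32851 RefSeq promoter windows of 300 bases, TATAAA occurred in 13.6%, GAGGAA in 28.3%, and TTNNGNAA in 40.7%, while the NF-kB consensus occurred in 8.46%, the interferon-stimulated response element in 3.44%, the STAT letters in 8.30%, and the AP-1 letters in 7.81%. These matches describe letters only and say nothing of binding.

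Ccl2 encodes the main CCR2 ligand, monocyte chemoattractant protein 1. Its level was 190.1, 106 and 102 FPKM in anti-CD40 mice 2, 5, and 9. In control mice 3, 4, 7, 8, 11, and 12 it was 2.36, 10.3, 4.18, 2.35, 0.882, and 0.555 FPKM. The groups did not overlap, and the lowest anti-CD40 mouse was 9.87 times the highest control. The means were 133 ± 49.7 FPKM (SD, n = 3) and 3.45 ± 3.62 FPKM (SD, n = 6), and the log2 fold change was 5.75 (SE 0.73, 95% confidence interval 4.12 to 7.38, limma adjusted p = 1.28e-04). Fold changes are on the log2(FPKM + 0.1) scale, which understates changes of genes with low values.

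The controls were uneven for this gene. Mouse 4 was 2.47 times the next control, and the highest control was 18.6 times the lowest, compared with 1.86 times within the anti-CD40 mice. Without mouse 4 the log2 fold change was 6.18 (SE 0.56). Mouse 4 was also the highest control for Ccl8, Ccl12, and Ccr2, but not for Ccl7, where mouse 3 was. The same control mouse had the highest summed level among controls of erythroid markers (50524 FPKM, against a control low of 7493), neutrophil markers (157 FPKM), T and NK cell markers (16.03 FPKM), B cell markers (6.54 FPKM), nonclassical monocyte markers (15.9 FPKM), and stellate cell markers (428 FPKM). Its summed hepatocyte markers (12365 FPKM) and pancreas markers (69.5 FPKM) were the lowest among controls, and its classical monocyte, Kupffer cell, and sinusoidal endothelial sums were neither highest nor lowest. The part of these cells in its chemokine levels was not tested.

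**Figure D1:**
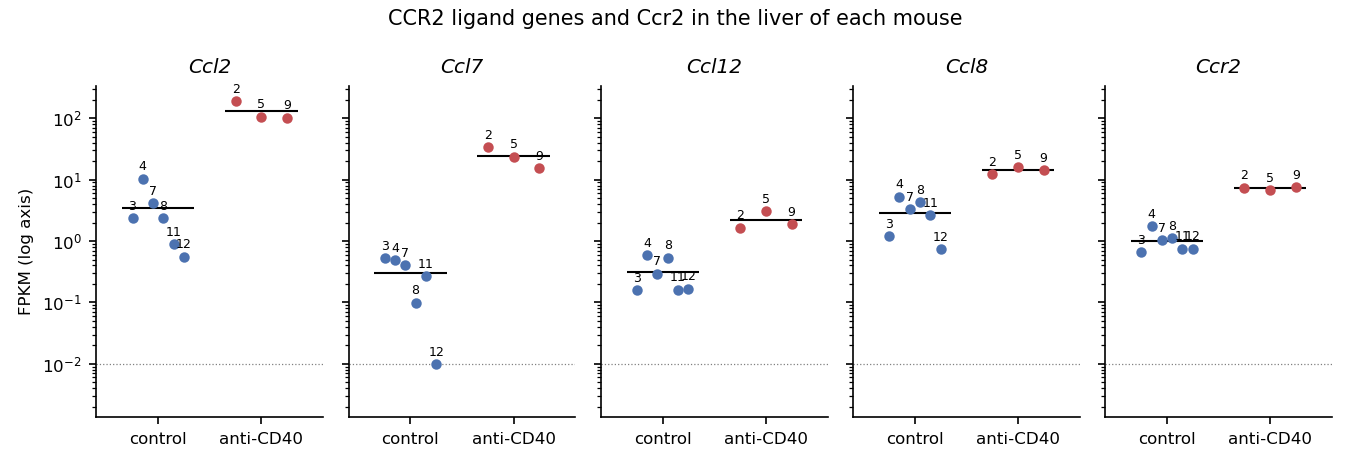
FPKM of Ccl2, Ccl7, Ccl12, Ccl8, and Ccr2 in each liver on a log axis, with control mice in blue, anti-CD40 mice in red, mouse numbers above the points, and black bars for group means. In all 5 panels the red points lie above every blue point, the blue points of Ccl2 and Ccl7 are the most spread, and Ccl7 of mouse 12 sits on the dotted line at the table's floor of 0.01 FPKM.

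Ccl7, which encodes monocyte chemoattractant protein 3, had the highest fitted fold change of the 5 genes. The anti-CD40 mice 2, 5, and 9 had 33.8, 23.6, and 15.2 FPKM. The control mice 3, 4, 7, 8, 11, and 12 had 0.530, 0.491, 0.407, 0.0990, 0.268, and 0.01 FPKM. The lowest anti-CD40 mouse was 28.7 times the highest control, so the separation was wider than that of Ccl2. The means were 24.2 ± 9.32 FPKM (SD, n = 3) and 0.301 ± 0.213 FPKM (SD, n = 6), with a log2 fold change of 6.09 (SE 0.54, 95% confidence interval 4.89 to 7.29, limma adjusted p = 1.17e-05).

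The steps between FPKM values gave the reads behind them as the smallest whole numbers that fit. Ccl7 rested on 911 reads in the anti-CD40 mice and 21 in the control mice, where mouse 8 had 1 read and mouse 12 had 0. The control level of Ccl7, and with it the size of its fold change, was therefore set by few reads. Raising the pseudocount to 1 gave a log2 fold change of 4.23, below the 5.18 of Ccl2 in that setting, and lowering it to 0.01 gave 6.83. Ccl2 rested on 5038 and 247 reads.

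Ccl8 encodes monocyte chemoattractant protein 2. It was at 12.3, 15.8, and 14.2 FPKM in anti-CD40 mice 2, 5, and 9 and at 1.21, 5.26, 3.33, 4.24, 2.61, and 0.730 FPKM in control mice 3, 4, 7, 8, 11, and 12. The gap between groups was the narrowest of the 5 genes, as the lowest anti-CD40 mouse was 2.34 times the highest control. The means were 14.1 ± 1.73 FPKM (SD, n = 3) and 2.90 ± 1.74 FPKM (SD, n = 6), and the log2 fold change was 2.51 (SE 0.53, 95% confidence interval 1.34 to 3.68, limma adjusted p = 0.00305). It rested on 267 reads in the anti-CD40 mice and 102 in the control mice.

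Ccl12, the gene of monocyte chemoattractant protein 5, had the lowest mean FPKM of the 5 genes after anti-CD40. Its level was 1.65, 3.06, and 1.88 FPKM in anti-CD40 mice 2, 5, and 9 and 0.159, 0.589, 0.293, 0.535, 0.161, and 0.169 FPKM in control mice 3, 4, 7, 8, 11, and 12. All anti-CD40 mice were higher, by at least 2.79 times between the nearest mice. The means were 2.20 ± 0.760 FPKM (SD, n = 3) and 0.318 ± 0.197 FPKM (SD, n = 6), with a log2 fold change of 2.54 (SE 0.38, 95% confidence interval 1.70 to 3.37, limma adjusted p = 3.48e-04). Only 12 reads in all lay behind the control values and 45 behind the anti-CD40 values, and no control mouse had more than 4.

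Ccr2, the receptor gene, was the least variable of the 5. The anti-CD40 mice 2, 5, and 9 had 7.41, 6.81, and 7.51 FPKM, a spread of 1.103 times between the highest and the lowest. The control mice 3, 4, 7, 8, 11, and 12 had 0.665, 1.73, 1.03, 1.11, 0.750, and 0.753 FPKM. The lowest anti-CD40 mouse was 3.94 times the highest control. The means were 7.24 ± 0.377 FPKM (SD, n = 3) and 1.01 ± 0.396 FPKM (SD, n = 6), and the log2 fold change was 2.80 (SE 0.25, 95% confidence interval 2.23 to 3.36, limma adjusted p = 1.41e-05). The values rested on 1531 and 394 reads. For each of the 5 genes the exact permutation test (2-sided, all 84 splits of the mice) gave p = 0.0238, the smallest this design allows.

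On the per-length FPKM scale, the order of mean levels after anti-CD40 was Ccl2, Ccl7, Ccl8, Ccr2, and Ccl12. Ccl7 and Ccl8 were neighbours whose ranges overlapped (15.2 to 33.8 and 12.3 to 15.8 FPKM), and the other neighbours did not overlap. In control mice the order was Ccl2, Ccl8, Ccr2, Ccl12, and Ccl7, and the ranges of Ccl2 and Ccl8, of Ccl8 and Ccr2, and of Ccl12 and Ccl7 overlapped. On this scale Ccl7 thus moved from the lowest to the next highest mean. By recovered reads the order was another. The anti-CD40 totals were 5038 for Ccl2, 1531 for Ccr2, 911 for Ccl7, 267 for Ccl8, and 45 for Ccl12. The control totals were 394 for Ccr2, 247 for Ccl2, 102 for Ccl8, 21 for Ccl7, and 12 for Ccl12. Because reads came from transcript ends, dividing by length distorts comparisons between genes. Length cancels in the ratio of group mean FPKM of the same gene. It does not fully cancel in the fitted fold changes or in ratios between genes, because the pseudocount stands for different numbers of reads. A read was worth 0.0851 FPKM for Ccl2, 0.0861 for Ccl7, 0.168 for Ccl8, 0.155 for Ccl12, and 0.0151 for Ccr2.

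The 2 genes with the larger changes shared an order of mice that the others did not. Among anti-CD40 mice, Ccl2 and Ccl7 were highest in mouse 2 and lowest in mouse 9, whereas Ccl8 and Ccl12 were lowest in mouse 2 and highest in mouse 5. These orders are described without a test.

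Ratios between genes within a mouse asked whether the 5 genes changed by unequal amounts, over 10 pairs. Each of the 6 pairs that set Ccl2 or Ccl7 against Ccl8, Ccl12, or Ccr2 differed between groups, with every anti-CD40 mouse above every control (exact permutation test, p = 0.0238, adjusted p = 0.0397 over the 10 pairs). The log2 ratio of Ccl2 to Ccl8 averaged 3.17 ± 0.67 (SD, n = 3) after anti-CD40 and −0.07 ± 0.98 (SD, n = 6) in controls, a difference of 3.24. The differences were 3.21 for Ccl2 to Ccl12, 2.95 for Ccl2 to Ccr2, 3.58 for Ccl7 to Ccl8, 3.55 for Ccl7 to Ccl12, and 3.29 for Ccl7 to Ccr2. For Ccl7 to Ccr2, the anti-CD40 values were 1.01 to 2.18 and the control values −2.96 to −0.28. These calls need all 6 controls: with any 1 control mouse left out, each of the 6 pairs had p = 0.0357, the smallest then possible, and an adjusted p of 0.0595 (exact permutation test). Without an anti-CD40 mouse the test cannot go below 0.0714.

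The other 4 pairs did not pass the test. The log2 ratio of Ccl2 to Ccl7 differed by −0.34 between groups (95% interval −1.65 to 1.06, exact permutation adjusted p = 0.688), and that of Ccl8 to Ccl12 by −0.03 (−0.79 to 1.20, exact permutation adjusted p = 0.881). The difference was −0.29 for Ccl8 to Ccr2 (−0.94 to 0.95, exact permutation adjusted p = 0.688) and −0.26 for Ccl12 to Ccr2 (−1.01 to 0.53, exact permutation adjusted p = 0.544). The intervals come from inverting the permutation test, and they do not show equal change. With a pseudocount of 1, which shrinks changes of the low gene Ccl12, the ratio of Ccl8 to Ccl12 differed by 0.82 and that of Ccl12 to Ccr2 by −0.79 (exact permutation adjusted p = 0.0298 for each).

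**Figure D2:**
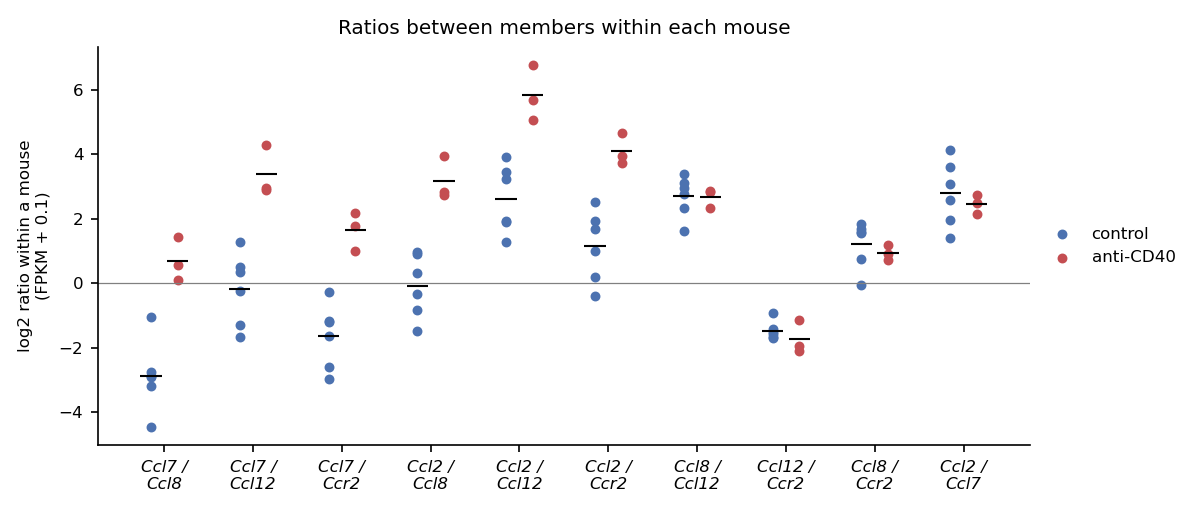
Log2 ratio of FPKM + 0.1 between pairs of the 5 genes within each mouse (control blue, anti-CD40 red, black bars for means), ordered by the difference between groups. The 6 pairs on the left, which set Ccl2 or Ccl7 against Ccl8, Ccl12, or Ccr2, separate the groups, while the groups overlap in the 4 pairs on the right.

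Around Ccl2, the table listed Ccl11 and Ccl1 as the other chemokine genes of the cluster. Ccl11 was low, at 0.312, 0.166, and 0.238 FPKM in anti-CD40 mice 2, 5, and 9 and at 0.0604, 0.279, 0.0556, 0.01, 0.0610, and 0.01 FPKM in control mice 3, 4, 7, 8, 11, and 12. The groups overlapped through control mouse 4, and the values rested on 13 and 8 reads. Its log2 fold change of 1.04 (SE 0.38) passed narrowly with limma (adjusted p = 0.0481), but not with the exact permutation test (p = 0.0714), and the call was lost in 12 of 19 alternative settings, with adjusted p up to 0.163. Ccl1, which encodes a ligand of CCR8, was too low to test, with 1 read in mouse 2 and the floor in the other 8 mice.

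Ccr2 sits among other CC receptor genes, of which Ccr1 was called higher. Ccr1, which encodes a receptor shared by CCL7 and other CC ligands, started at −140.1 kb relative to the start of Ccr2 and rose from 0.0612 ± 0.0374 FPKM (SD, n = 6) to 2.57 ± 0.708 FPKM (SD, n = 3), a log2 fold change of 4.04 (SE 0.25, limma adjusted p = 1.62e-06). The difference between Ccr2 and Ccr1 was not tested. Between Ccr1 and Ccr2, Ccr1l1 was at the floor in every mouse and Ccr3, the eotaxin receptor gene, was below the filter, with 19 of its 33 control reads in mouse 4. The gene 2010315B03Rik, also within 200 kb, had a log2 fold change of 0.20 (SE 0.39, limma adjusted p = 0.697).

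**Figure D3:**
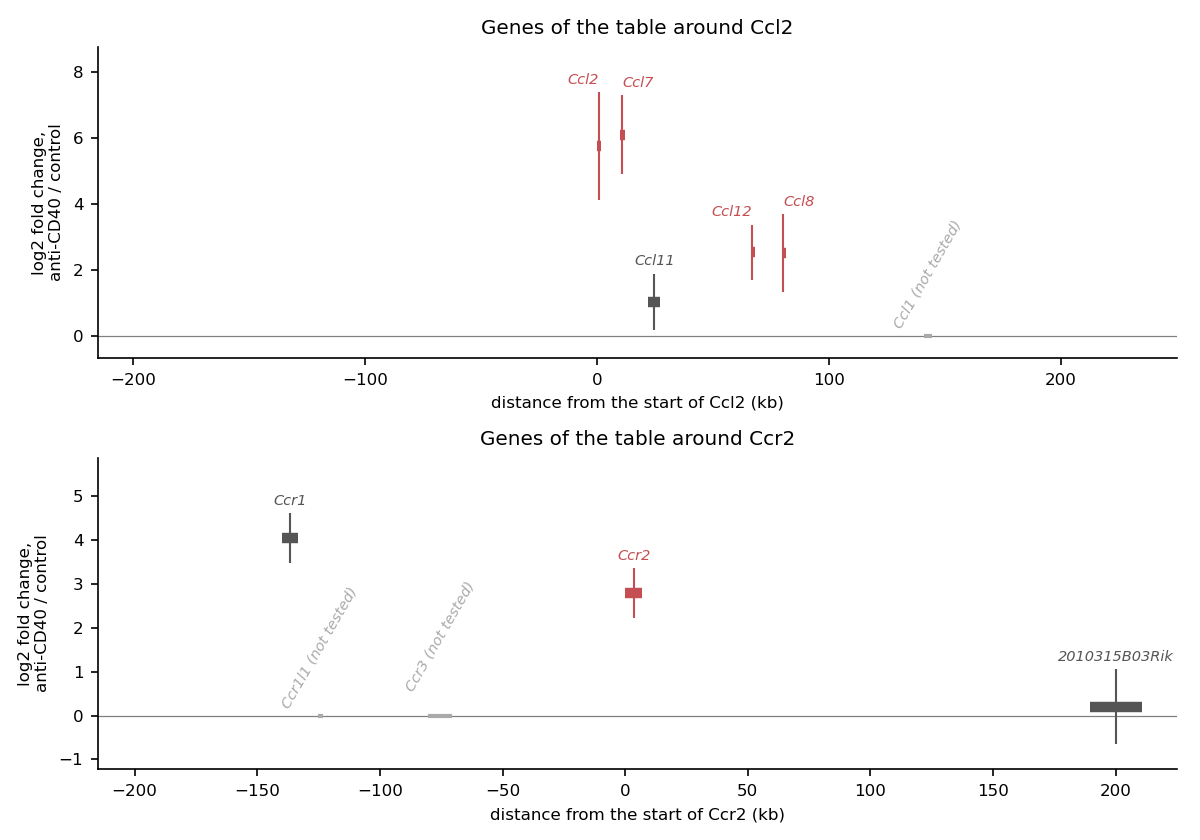
Log2 fold change, anti-CD40 over control, against distance in kb from the start of Ccl2 (top) and Ccr2 (bottom), with thick bars spanning each gene, vertical lines for 95% confidence intervals, the 5 genes in red, other tested genes in dark gray, and untested genes in light gray on the zero line. Ccl2 and Ccl7 lie above Ccl12 and Ccl8, with Ccl11 lower between them, and Ccr2 at 2.80 lies below Ccr1 at 4.04.

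Similar sequences could let reads of one gene be counted for another. Between the transcripts of Ccl2, Ccl7, Ccl8, Ccl11, and Ccl12 (GENCODE, same build), the longest identical stretch was 23 bases, in the pair Ccl2 and Ccl7, and within the last 300 bases, where these libraries read, it was at most 13.

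The table's Ccr2 ended 4417 bases before the end of the gene in GENCODE, whereas the ligand genes ended within 2 bases of theirs. Reads at the more distal end of Ccr2 lie outside the coordinates the table gives.

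Other CC chemokine ligand genes, 16 in number, moved in both directions. Of the 14 tested, 8 were called higher and 3 lower, with a median log2 fold change of 1.24 against 0.0056 over all genes tested. Of all genes tested, 23.5% were called higher. Ccl20, which encodes the ligand of CCR6, was highest: it was at the floor in all control mice and at 21.0 ± 6.62 FPKM after anti-CD40 (SD, n = 3). Ccl24, an eosinophil attractant gene, was lowest, falling from 11.3 ± 2.87 FPKM (SD, n = 6) to 1.04 ± 0.330 FPKM (SD, n = 3), a log2 fold change of −3.32 (SE 0.24, limma adjusted p = 3.29e-06). Ccl9, Ccl17, and Ccl21a did not pass, with log2 fold changes of 0.26, 0.13, and −0.18. Ccl1 and Ccl28 were below the filter.

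Of the 11 other CC receptor genes, 7 were tested and 4 were called higher, against 23.5% of all genes tested. Besides Ccr1, these were Ccr6, with a log2 fold change of 5.18 (SE 0.37), Ccr7, the lymph node homing receptor gene, with 3.46 (SE 0.42), and Ccrl2, which encodes a chemerin-binding relative, with 2.33 (SE 0.25). The genes that did not pass included Ccr9, with a log2 fold change of 0.37 (95% confidence interval −0.23 to 0.97), and Ccr10, with −0.40 (−1.11 to 0.31). The Ccr9 value changed sign under quantile normalization, to −0.07. Ccr1l1, Ccr3, Ccr4, and Ccr8 were below the filter. Of the receptors named above for the ligands CCL7 and CCL8 other than CCR2, limma therefore tested Ccr1 alone. Ccr3 had 15 reads in the anti-CD40 mice and 33 in the control mice. Its difference on the log2(FPKM + 0.1) scale, which shrinks changes at so low a level, was −0.015 (exact permutation test, p = 0.952).

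Atypical receptors bind chemokines without G protein signaling, and ACKR1 and ACKR2 take up CCR2 ligands. Ackr1 was at 1.18 ± 0.375 FPKM in controls (SD, n = 6) and 1.5001 ± 0.348 FPKM after anti-CD40 (SD, n = 3), a log2 fold change of 0.36 (95% confidence interval −0.23 to 0.96, limma adjusted p = 0.299). Ackr2 was at 0.701 ± 0.267 and 0.878 ± 0.112 FPKM, a log2 fold change of 0.35 (−0.26 to 0.96, limma adjusted p = 0.329), which turned to −0.03 under quantile normalization. Ackr3, a CXCL12 scavenger gene, had 0.86 (−0.03 to 1.75, limma adjusted p = 0.108). Ackr4, which encodes a scavenger of CCL19 and CCL21, was called lower, with a log2 fold change of −3.14 (SE 0.25, limma adjusted p = 6.97e-06). After the abundant acute phase genes Saa1, Saa2, and Saa3 were removed and the mice rescaled, Ackr2 and Ackr3 were called higher, in a setting that raised the median of all genes tested by 0.35.

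**Figure D4:**
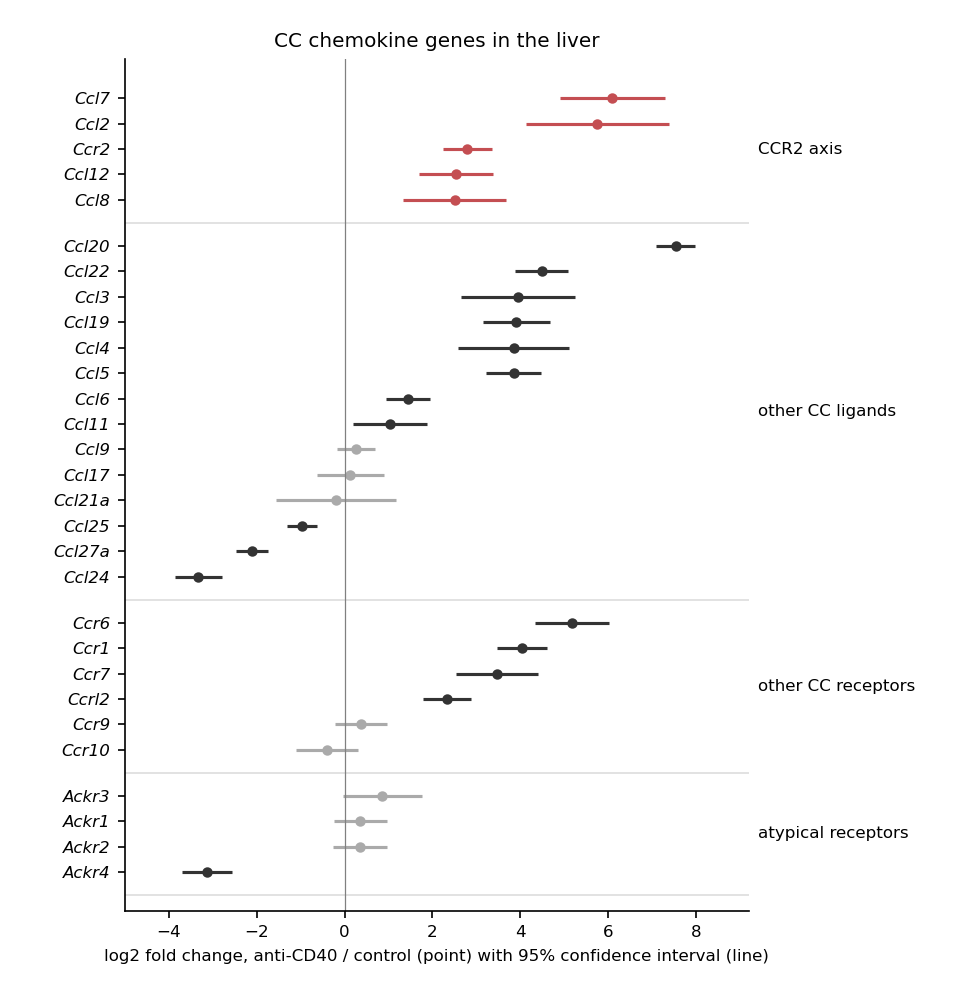
Log2 fold change, anti-CD40 over control, with 95% confidence intervals for the 5 genes (red), other CC ligands, other CC receptors, and atypical receptors, in black where the adjusted p was under 0.05 and gray where it was not. Ccl7 and Ccl2 lie at 6.09 and 5.75, Ccr2, Ccl12, and Ccl8 lie between 2.51 and 2.80, and the family ends with Ccl24 at −3.32. The point of Ccl20, listed at the floor in all control mice, depends on the pseudocount.

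Genes whose products couple CCR2 and related receptors to movement, or turn them off, were mostly higher. Of 11, 9 were called higher and 2 did not pass, with a median log2 fold change of 0.81. Over all genes tested, 23.5% were called higher. The highest was Rac2, a small GTPase gene of blood cells, with 2.62 (SE 0.16), and the lowest was Gnai3, an inhibitory G protein subunit gene, with 0.03 (SE 0.35). Nup85, whose product is a nucleoporin that also binds CCR2, did not pass either, at 10.3 ± 1.003 FPKM in controls (SD, n = 6) and 10.9 ± 0.947 FPKM after anti-CD40 (SD, n = 3), a log2 fold change of 0.08 (95% confidence interval −0.18 to 0.34).

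Among 11 genes for transcription factors and RNA-binding proteins known to act on Ccl2, 6 were called higher and 5 did not pass. Their median log2 fold change was 0.54, and 23.5% of all genes tested were called higher. Jun, a subunit of AP-1, was highest at 1.76 (SE 0.30), from 9.21 ± 3.51 FPKM (SD, n = 6) to 29.5 ± 3.57 FPKM (SD, n = 3). Zfp36, which encodes the mRNA-destabilizing protein tristetraprolin, was lowest at 0.04 (SE 0.17). The others that did not pass were Rela (0.36), Cebpb (0.53), Sp1 (0.15), and Khsrp (0.07), given as log2 fold changes. Messenger levels of these regulators do not measure their activity.

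In bulk liver, more cells of a type and more RNA per cell cannot be told apart. Markers of classical monocytes, the main carriers of CCR2, were all called higher, 9 of 9, against 23.5% of all genes tested. Their median log2 fold change was 4.27. Their summed level was 1677 to 2174 FPKM after anti-CD40 and 102 to 245 FPKM in controls. Ly6c2, a defining gene of this population, had a log2 fold change of 5.61 (SE 0.37), and Chil3 was highest with 7.88 (SE 0.35). The value of Ccr2, 2.80, was below each of the 9 marker genes, a comparison made without a test. Of 7 nonclassical monocyte markers, 6 were called higher, from Eno3 at 0.89 to Spn at 3.26, and Nr4a1 did not pass (1.27, SE 0.85). Their part in the result for Ccr2 was not tested.

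Neutrophil markers were called higher in 9 of 9 genes tested (Ly6g was not analysed here), against 23.5% of all genes tested. Their median was 4.33, and their summed level was 4225 to 5215 FPKM after anti-CD40 and 19.2 to 157 FPKM in controls. The extremes were S100a9 at 7.02 and Ltf at 1.74. T and NK cell markers were called higher in 8 of 9 genes (median 1.30, 5 genes with quantile normalization), from Gzma at 4.47 to Cd4, which did not pass, at 0.49. B cell markers were called higher in 4 of 4 tested (median 2.89), from Ms4a1 at 4.30 to Cd79a at 1.99. The part of these cells in the levels of the 5 genes was not tested.

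Of all 13807 genes tested, 2990 were called lower and 3240 higher. Among markers of resident liver cells, of 8 Kupffer cell markers, 7 were called lower, with a median log2 fold change of −3.11. Clec4f, a defining gene, fell from 20.8 ± 3.17 FPKM (SD, n = 6) to 0.107 ± 0.105 FPKM (SD, n = 3), and Clec1b did not pass, at −0.03. Of 7 stellate cell markers, 4 were called lower and 1 higher (median −1.23), from Colec11 at −2.92 to Pdgfrb at 1.099, and Des and Dcn did not pass. Of 7 sinusoidal endothelial markers, 3 were called lower and 2 higher (median −0.42), from Oit3 at −0.90 to Lyve1 at 2.08, and Stab1 and Stab2 did not pass. Of 7 hepatocyte markers, 5 were called lower and 1 higher (median −0.997), from Alb at −2.43 to Apob at 0.74, while Tat did not pass, and their summed level of 4284 FPKM or more in every mouse fits the liver label. The part of these sources in the ligand levels was not tested.

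**Figure D5:**
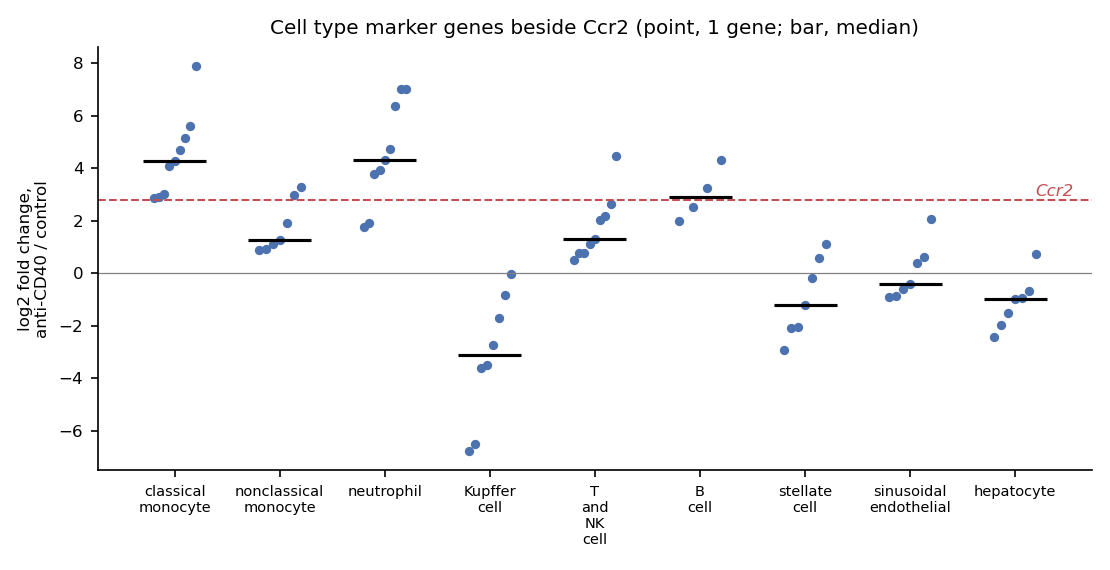
Log2 fold change, anti-CD40 over control, of marker genes for 9 cell types (points) with the median of each list (black bars) and the value of Ccr2 (dashed red line, 2.80). All classical monocyte points lie above the line and all Kupffer cell points lie below zero.

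The genes most like each of the 5 over the 9 mice were those with the smallest root mean square difference of log2(FPKM + 0.1), each gene centered on its control mean. For Ccl2 these were Retnlg (0.57), Guca2a (0.58), and Mcemp1 (0.65), and Ccl7 was sixth closest of all genes at 0.80. For Ccl7 they were Clec4d (0.66), Irg1 (0.72), and H2-M2 (0.72), with Ccl2 eighth. Retnlg, which encodes resistin-like gamma, was also on the neutrophil marker list.

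For Ccl8 the closest were Hvcn1 (0.22), a proton channel gene, Ifitm6 (0.31), and Siglecg (0.37). For Ccl12 they were Havcr2 (0.22), which encodes TIM-3, Tmem171 (0.31), and Xcl1 (0.32), and Ccr2 was sixth at 0.36. For Ccr2 they were Cyfip2 (0.14) and the MHC class II genes H2-Aa (0.16) and H2-Eb1 (0.16). H2-Aa rose from 40.0 to 272 FPKM between group means and H2-Eb1 from 18.6 to 131 FPKM. The likeness measure weighs the size of the group difference heavily and is a description.

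Across the series, the value of 1 read relative to the mean of the mice lay between 0.884 and 1.15, so the libraries were of similar depth, while absolute depth is unknown. Between 14684 and 15545 genes per mouse lay above the floor of 0.01 FPKM. Mouse 5 stood apart from the other mice in pancreatic transcripts, with a summed level of 716 FPKM for 8 pancreas markers, of which 1 of 7 tested, Cpb1, was called higher. The 4 erythroid markers tested, Hba-a2, Hbb-bs, Hbb-bt, and Alas2, had log2 fold changes of −1.22 to −0.78 and did not pass. Without mice 4 and 5, a setting chosen after seeing the data, the log2 fold changes were 6.31 for Ccl2, 6.23 for Ccl7, 2.65 for Ccl8, 2.45 for Ccl12, and 3.00 for Ccr2, all with a limma adjusted p under 0.05.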

How the data were processed

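The authors isolated RNA from stored liver tissue, made QuantSeq 3′ libraries, sequenced them on a NextSeq 500, and aligned the reads to mm10 with STAR. The FPKM values they deposited come from Cufflinks and CuffDiff and have a floor of 0.01. The annotation and the filter applied are not given in the sources used here. The 15 genes of 24341 with a failed estimate were left out. The 13807 genes whose mean FPKM reached 0.1 were tested on log2(FPKM + 0.1) with limma 3.58.1 in R 4.3.3 (2-sided, trended eBayes, no covariate besides treatment) and Benjamini-Hochberg adjustment at 0.05. For within-mouse ratios and single genes, an exact permutation test used all 84 splits (scipy 1.17.1). The labels name no batch or pairing. Each mouse is labelled as a separate animal.

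The members and gene lists were chosen with earlier results of these data known. Named genes were the 5 members, all genes of the cluster, of the other CC receptors, and of the atypical receptors, the highest, the lowest, and up to 5 uncalled genes of each other list, defining markers, and the 3 genes most like each member. Some genes the rule takes are not reported here.

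Depth is unknown. Whole reads were recovered from FPKM steps, with a tolerance of 0.02 of a read plus 0.0002 per read. Of 3441 low genes examined, 89.5% came out whole in every mouse. Reads of mice above 300 were rounded without this check. No count test was run, since reads were recovered for part of the table. On simulated data, limma recovered 96% of genes changed by a log2 fold change of 2 and 69% of those changed by 1 (13807 genes, 200 changed in all), with 13 false calls. In the data 6230 genes were called, far more than were changed in the simulation. Recovery was not given by expression level, so these rates do not show recovery for low genes such as Ccl7, Ccl11, and Ccl12. Alternatives were other pseudocounts, filters, scalings, and variance models, and leaving out each mouse.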

Additional observations from a re-analysis of the deposited data

Results flagged for a closer look

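In control mice, the Ccl2 FPKM of mouse 4 stood apart from the other 5: its gap to the next control was 0.629 of the whole control range, above the 95% critical value of Dixon for 6 samples. The Ccl11 FPKM of the same mouse stood apart with a gap of 0.811 of the range, which corresponds to 5 reads against at most 1 in the other control mice. Among 17 genes examined, about 0.85 would be set apart by chance if control values were normally distributed. The rule was applied to FPKM without logs, and the log scale of the other tests was not examined. Without mouse 4, the log2 fold change of Ccl2 was 6.18 (SE 0.56), compared with 5.75 (SE 0.73) with it.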

How the results depend on the processing

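The 5 genes kept their direction and their side of the threshold in all alternatives run, 19 for Ccl12 and 20 for each of the others, as Ccl12 fell below a mean FPKM of 1. Their log2 fold changes ranged from 5.18 to 6.31 for Ccl2, 4.23 to 6.83 for Ccl7, 2.09 to 2.87 for Ccl8, 1.27 to 2.91 for Ccl12, and 2.06 to 3.15 for Ccr2, with the lowest value of each at a pseudocount of 1. Leaving out each mouse gave 5.38 to 6.18, 5.77 to 6.39, 2.19 to 2.73, 2.28 to 2.71, and 2.70 to 2.96 in the same order, and 4875 to 6808 called genes. Over all alternatives 4875 to 7377 genes were called, against 6230. Leaving out the Saa genes and rescaling made 77.2% of calls higher, against 52.0%, and moved the median of all genes to 0.35. Called genes fell into 46.4% higher with quantile normalization.

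Among values that did not pass the test, the sign turned for Ccr9 (−0.067) and Ackr2 (−0.035) under quantile normalization. With a pseudocount of 1 it turned for the ratio differences of Ccl2 to Ccl7 (0.96), Ccl8 to Ccl12 (0.82), and Ccl8 to Ccr2 (0.029). Leaving out 1 mouse gave −0.24 to 0.14 for Ccl8 to Ccl12, with a positive sign without mouse 5 (0.14), 4 (0.02), 7 (0.06), or 11 (0.11). Of the 10 pairs, 6 passed, and 6 or 8 with a pseudocount of 0.01 or 1. Without any 1 control mouse 0 passed (exact permutation, adjusted p = 0.0595 for the same 6 pairs, whose unadjusted p was 0.0357), while their differences stayed between 2.65 and 3.95. Without an anti-CD40 mouse no pair can pass. The cause of these turns was not tested. The limit for Ccl7, Ccl11, and Ccl12 was the number of reads, and the permutation test cannot go below 0.0238. No paired analysis was possible because the mouse numbers do not repeat between groups.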
